A study of Mus musculus with 11 samples.

Results

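The interferon response and antigen presentation genes described here are 34 mouse genes out of 27179 in the count table, chosen by name as a list and matched to the table by Entrez identifier. The list holds 16 interferon-induced effectors, 4 transcription factors of the interferon response, 5 genes that cut and load peptides for MHC class I, 4 class I genes with their activator Nlrc5, and 3 class II genes with their activator Ciita. All 34 passed the filter on low counts and were among the 17370 genes tested.

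The data were bulk RNA-seq libraries of sorted mammary epithelial cells from pubertal mouse glands. Glands of E-cadherin-GFP mice on a C57BL/6 background were taken at 5 weeks of age and microdissected into terminal end buds (TEBs), the bulbous growing tips, and the ducts behind them. From each structure Lin-CD29+CD24+ cells were sorted by GFP, with the low fraction taken as basal and the high fraction as luminal. There were 3 basal duct, 3 basal TEB, 3 luminal TEB and 2 luminal duct libraries, the last numbered 1 and 3. Every mouse carried the reporter, no group was treated, and each library pooled at least 2 mice, so p-values measure the spread between pools.

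As background, cells that sense interferon activate JAK kinases and the STAT and IRF factors, and these switch on antiviral effectors and much of the antigen presentation pathway. MHC class I molecules carry a light chain, B2m, and show peptides from inside the cell to CD8 T cells. The immunoproteasome cuts those peptides, and the TAP transporter with tapasin loads them. MHC class II molecules are carried mainly by professional antigen-presenting cells, although epithelia can also make them.

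Promoter sequence of the genes around which the results turn is shown to let the interferon elements be read beside the values. The sequences are from RefSeq windows on GRCm38.p6, the build that underlies mm10, reaching from 250 bases before to 50 bases after each annotated start, and 27 of the 34 genes had at least 1 window. Stretches are printed 5′ to 3′ on the strand of the gene. Only 30 bases at an element are shown where an exon lies close and, by choice, for Oas1a, Gbp2 and Bst2. Capitals mark 4 motifs searched on both strands, namely the interferon-stimulated response element (GAAA, any 2 bases, GAAA), a shortened form of it (GAA, any 2 bases, GAAA), the CCAAT box and the palindromic NF-kB site that opens the first pair of stretches (GGGGATTCCCC). H2-K1 (chr17:34000429-34000458, minus strand) and H2-D1 (chr17:35262923-35262952, plus strand), the classical class I heavy chains, come first because both fell in basal cells of TEBs.
H2-K1: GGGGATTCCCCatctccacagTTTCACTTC
H2-D1: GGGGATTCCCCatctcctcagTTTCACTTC
H2-T23 (chr17:36032806-36032835, minus strand) and B2m (chr2:122147487-122147685, plus strand) are the non-classical heavy chain and the light chain of the same class.
H2-T23: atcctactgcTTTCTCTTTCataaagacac
B2m: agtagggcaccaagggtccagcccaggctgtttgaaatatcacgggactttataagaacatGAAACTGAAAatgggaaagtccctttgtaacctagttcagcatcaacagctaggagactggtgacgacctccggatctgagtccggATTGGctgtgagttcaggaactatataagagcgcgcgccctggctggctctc
The effectors Isg15 (chr4:156200819-156201018, minus strand), Oas1a (chr5:120907523-120907552, minus strand), Gbp2 (chr3:142620594-142620623, plus strand) and Bst2 (chr8:71537580-71537609, minus strand) each hold the full element.
Isg15: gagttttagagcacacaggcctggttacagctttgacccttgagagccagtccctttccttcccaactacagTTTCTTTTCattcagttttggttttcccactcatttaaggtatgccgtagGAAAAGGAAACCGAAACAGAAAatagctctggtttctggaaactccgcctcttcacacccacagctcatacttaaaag
Oas1a: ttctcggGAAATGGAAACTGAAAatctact
Gbp2: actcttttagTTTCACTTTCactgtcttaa
Bst2: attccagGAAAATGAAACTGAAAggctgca
H2-Aa (chr17:34287824-34288023, minus strand), a class II chain, is shown as the contrast, with a CCAAT box and none of the other motifs marked.
H2-Aa: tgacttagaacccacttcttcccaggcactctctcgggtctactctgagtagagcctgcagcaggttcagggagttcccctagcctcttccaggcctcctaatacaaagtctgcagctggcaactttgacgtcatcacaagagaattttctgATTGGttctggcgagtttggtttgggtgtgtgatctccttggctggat

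Among the 32 windows of the 27 genes, 12 (37.5%) held the full element, against 3.44% of all 32851 windows of the same length. The shortened form stood in 9 windows (28.1%, against 7.52% of all), including H2-K1, H2-D1, Stat2 and Isg15, and 2 windows held both forms overlapping. The letters of the palindromic NF-kB site were taken from the H2-K1 window, so its match there was fixed in advance. It stood in 3 windows of 2 genes, the overlapping windows of H2-K1 and that of H2-D1, and in 10 of all windows (0.0304%). The STAT-type motif TTCNNNGAA was in 6 windows (18.8%, against 8.30%), among them Irf1 and Psmb8, and CCAAT in 15 (46.9%, against 37.4%). In both H2-K1 and H2-D1 the NF-kB site lay 10 bases before the shortened element, and 130 of 154 aligned bases (84.4%) of the pair of windows were identical. The shortened element and the NF-kB site were added to the search after the windows had been read, so their shares are not read as enrichment. These are matches of letters, not measured sites.

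Counts per library ranged between 27989137 and 49221436 fragments. Basal epithelial markers were higher in basal than luminal cells in 6 of 6 genes in both structures, and luminal markers were lower in 5 of 5. In 25 immune markers, the summed level was between 7.04 and 38.0 CPM (counts scaled to library size by TMM) in 9 libraries, 104.9 in basal duct replicate 2 and 133.2 in luminal duct replicate 3, although the sort removed lineage-positive cells. Of this sum the marker Cd68 alone gave 20.8 to 51.6 CPM in basal libraries and 4.33 to 11.1 CPM in luminal ones. Cd68 passed as higher in basal than luminal cells in both structures, so the sum in basal libraries largely tracks 1 gene. A level of 0 CPM allows up to 3 counts, which is between 0.0572 and 0.173 CPM depending on the library and covers counting error only. Mitochondrial transcripts took 37.5% of basal TEB replicate 1 and 28.5% of luminal duct replicate 3, and between 4.34% and 17.8% elsewhere. Basal duct replicate 2 had the highest level of its 3 libraries in 29 of the 34 genes, luminal duct replicate 3 the higher of the pair in 28 of 34, and luminal TEB replicate 3 the highest of 3 in 27 of 34. In bulk samples fewer cells of a kind and less RNA per cell cannot be told apart.

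**Figure D1:**
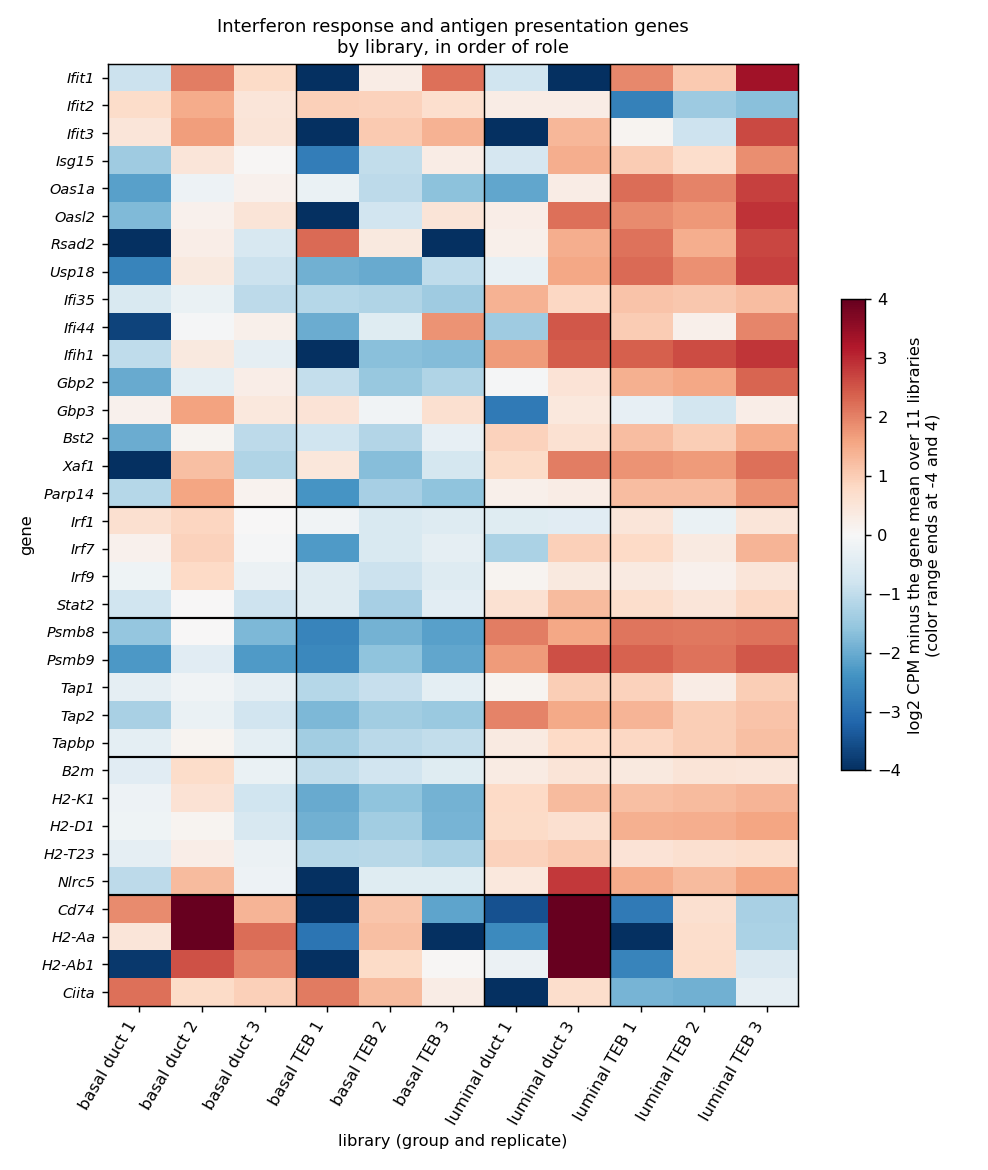
Heat map of the 34 genes in the 11 libraries, grouped by role (vertical axis) and by cell type and structure (horizontal axis). Colour is the log2 CPM of a gene minus its mean over all libraries, with the colour scale ending at -4 and 4. Class I and processing genes are low in the 3 basal TEB libraries and high in the luminal libraries. The class II genes other than Ciita are high mainly in basal duct replicate 2 and luminal duct replicate 3.

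Between TEBs and ducts, the genes of the list that passed were 3 class I heavy chains and tapasin, all lower in TEBs and all in basal cells. In basal cells 4 of 34 genes fell from ducts to TEBs (H2-D1, H2-K1, H2-T23 and Tapbp) and none rose (edgeR quasi-likelihood test, p adjusted by Benjamini-Hochberg over all tested genes). Among all tested genes 1.16% were lower and 0.167% higher by the same rule, 1.32% in all. At an unadjusted p under 0.05 the counts were 12 lower and 0 higher, and no other tool called a gene higher. Over all tested genes the edgeR likelihood ratio test called 707 in either direction, DESeq2 874 and voom 412. The share of all tested genes at an unadjusted p was not counted, so unadjusted counts have no background beside them here or below. The log2 fold change was below 0 in 31 of 34 genes (52.1% of all tested genes), with a median of -0.80 against -0.03 over all tested genes, and without basal duct replicate 2 the median was -0.41 with 3 genes called. In 15 genes every basal TEB library lay below every basal duct library, a pattern seen in 11.9% of all tested genes, and the opposite pattern was seen in none (8.88% of all).

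In luminal cells no gene of the list passed the test between TEBs and ducts in either direction, where 0.639% of all tested genes were higher and 0.771% lower in TEBs, 1.41% in all. At an unadjusted p under 0.05 there were 4 higher and 4 lower. The edgeR likelihood ratio test called 1 higher and 1 lower, DESeq2 called 1 higher and 2 lower, and voom called none. Over all tested genes these tools called 1006, 1277 and 309 in either direction, in that order. The luminal TEB libraries lay above the duct libraries without overlap in 11 genes (26.2% of all) and below them in 3 (17.4% of all). The log2 fold change was below 0 in 10 of 34 genes (46% of all), and its median was 0.29 against 0.04 over all tested genes. This median rested on the 2 duct libraries, and was 0.98 without luminal duct replicate 3 and -0.04 without luminal duct replicate 1. The change in basal cells minus the change in luminal cells, tested as an interaction term, was below 0 for 26 of 34 genes (55.1% of all), with a median of -0.83 against -0.13 for all tested genes. It passed for H2-D1 alone, where 0.363% of all tested genes passed in that direction and 0.0806% in the other, 0.443% in all.

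Between cell types the list was mostly higher in luminal cells. In TEBs 18 of 34 genes were lower and 1 higher in basal cells, beside 11.8% lower and 13.2% higher among all tested genes (25.1% in all), and the median log2 fold change was -1.88 against 0.04, with 28 of 34 values below 0 (48.4% of all). The TEB libraries of the 2 cell types did not overlap in 23 genes that were lower in basal cells (27.2% of all) and in 2 that were higher (22.6% of all). In ducts 10 genes were lower and 1 higher in basal cells, beside 9.71% and 12.6% of all (22.3% in all), with a median of -1.07 against 0.08 and 25 of 34 values below 0 (46.6% of all). The 10 were Psmb8, Psmb9, Tap2, Tapbp, H2-K1, H2-D1, H2-T23, Ifi35, Bst2 and Stat2, and 12 genes did not overlap in that direction (21.2% of all) against 3 in the other (24.8% of all). Of these calls those of H2-K1 (-1.07) and Tapbp (-0.79) were lost without basal duct replicate 1, basal duct replicate 3 or luminal duct replicate 3, and that of H2-K1 also without any single luminal TEB library. The duct comparison depended on luminal duct replicate 3, without which 6 genes were lower and 2 higher, with a median of -0.25. The 4 comparisons share libraries, so their values are set side by side and not correlated.

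**Figure D2:**
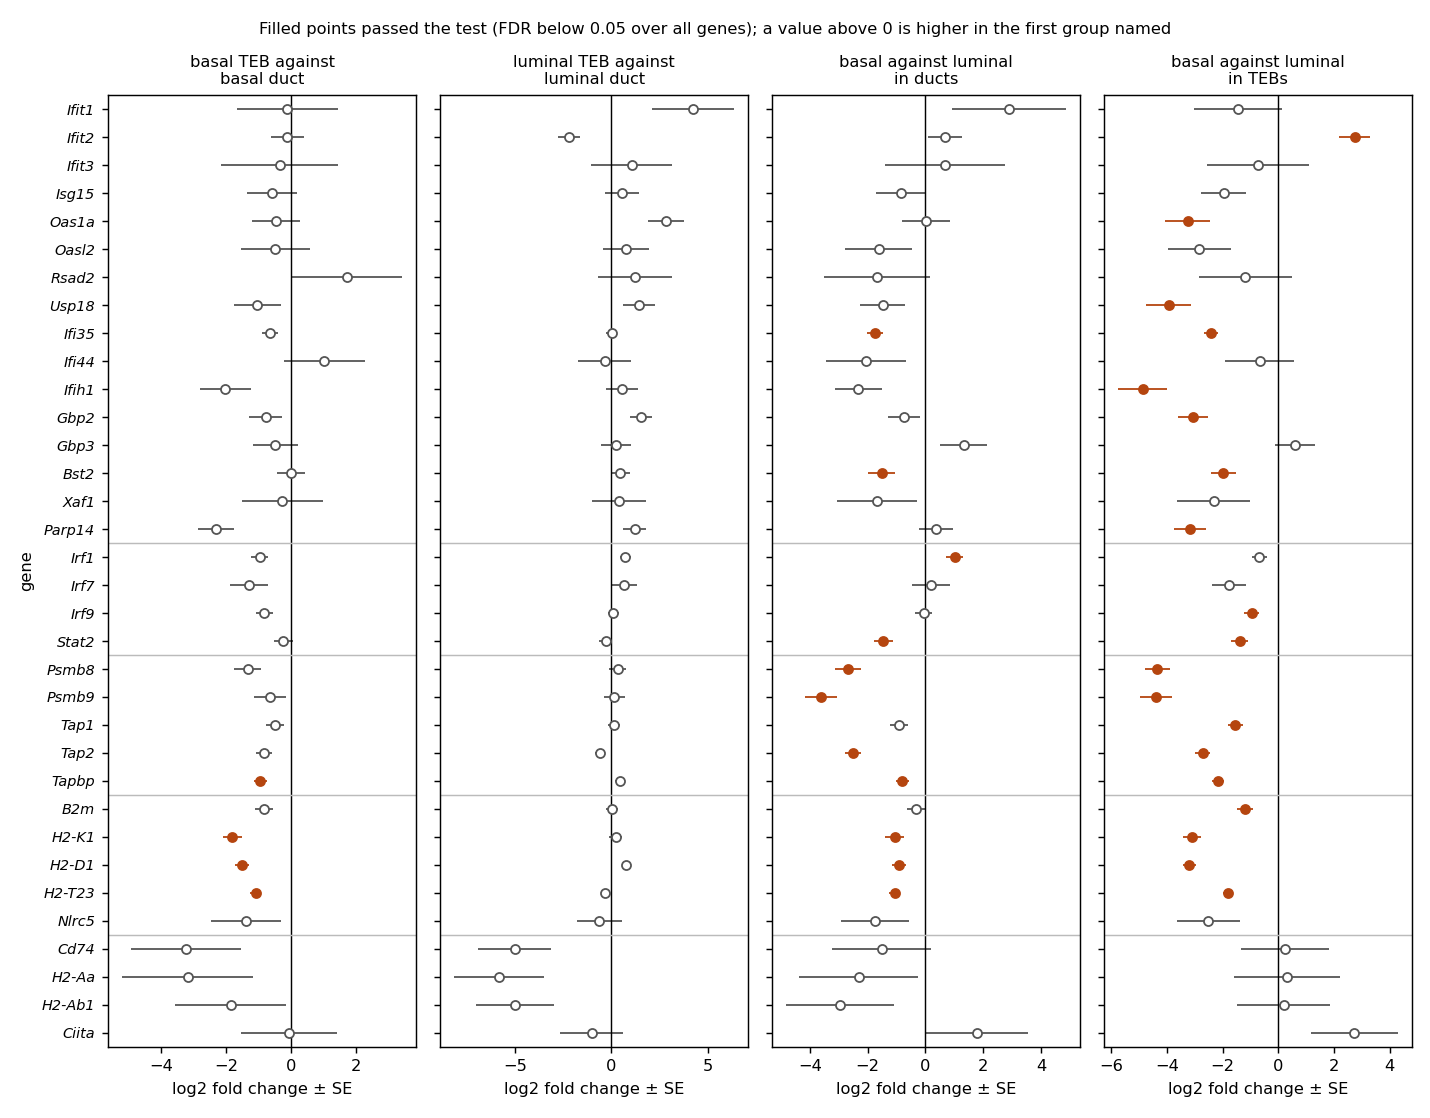
Log2 fold change of each of the 34 genes in the 4 comparisons (horizontal axis), with bars of 1 SE from the edgeR fit and filled points for genes past an adjusted p of 0.05. Most points of basal TEB against basal duct lie left of 0 with 4 filled, none are filled for luminal TEB against luminal duct, and most points of basal against luminal cells lie left of 0, with 11 filled in ducts and 19 in TEBs.

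Of the 5 class I genes, the 3 heavy chains fell from ducts to TEBs in basal cells, while B2m and Nlrc5 did not pass. H2-K1, which with H2-D1 forms the classical heavy chains that present peptide, stood at 294, 507 and 195 CPM in basal ducts and at 83.7, 109.7 and 91.5 CPM in basal TEBs. It was at 583 and 807 CPM in luminal ducts and at 777, 808 and 860.0 CPM in luminal TEBs. Every basal TEB library lay below every basal duct library, and these in turn lay below every luminal library. The fall in basal cells was 3.50-fold (log2 fold change -1.81, SE 0.30, adjusted p = 0.0137), whereas in luminal cells the log2 difference was 0.23 (SE 0.33, adjusted p = 0.768), with an interaction of -2.03 (SE 0.45, adjusted p = 0.0806). The basal call did not pass without basal TEB replicate 1 (-1.71) or basal TEB replicate 3 (-1.78).

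H2-D1 was at 193, 231 and 139.7 CPM in basal ducts and at 57.0, 82.7 and 58.9 CPM in basal TEBs. In luminal cells the levels were 366 and 341 CPM in ducts and 574, 594 and 651 CPM in TEBs. The structures did not overlap in either cell type, and they stood in opposite orders. H2-D1 fell 2.83-fold in basal cells (log2 fold change -1.503, SE 0.21, adjusted p = 0.00585), while the luminal difference of 0.78 (SE 0.24, adjusted p = 0.132) did not pass. The interaction was -2.28 (SE 0.32, adjusted p = 0.0127). Basal TEB cells held 9.15-fold less H2-D1 than luminal TEB cells (log2 fold change -3.19, SE 0.23, adjusted p = 1.25e-06), and basal duct cells were lower than luminal duct cells by a log2 difference of -0.91 (SE 0.23, adjusted p = 0.0137). The basal fall did not pass without basal TEB replicate 3 (-1.42), the duct difference did not pass without luminal duct replicate 1, and the interaction did not pass without basal duct replicate 1, basal TEB replicate 3, luminal TEB replicate 1 or luminal TEB replicate 3, with values from -2.75 to -2.10 over all alternatives.

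H2-T23, the heavy chain Qa-1 that presents leader peptides of other class I molecules, was at 83.0, 127 and 91.6 CPM in basal ducts and at 48.4, 49.4 and 44.5 CPM in basal TEBs. It was at 203 and 220.2 CPM in luminal ducts and at 158, 166 and 176 CPM in luminal TEBs. The basal groups did not overlap, and in luminal cells TEBs lay below ducts as well. The fall was 2.12-fold in basal cells (log2 fold change -1.09, SE 0.18, adjusted p = 0.0116), and the luminal difference of -0.34 (SE 0.19, adjusted p = 0.389) did not pass. Like H2-D1 it lost the basal call without basal TEB replicate 3 (-1.04). By sequence, 11.7% of the 80-base stretches of H2-T23, 5.71% of H2-D1 and 0.644% of H2-K1 also occur in another annotated transcript, so part of their counts could belong to a near copy.

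B2m, the light chain shared by all class I molecules, was at 188, 430.3 and 217 CPM in basal ducts and at 131, 152 and 187 CPM in basal TEBs. Levels in luminal cells were 329 and 369 CPM in ducts and 343, 374 and 361 CPM in TEBs. The basal groups did not overlap but nearly touched. The basal difference was -0.83 (SE 0.28, adjusted p = 0.201), and the luminal difference was 0.04 (SE 0.31, adjusted p = 0.978). In TEBs B2m was lower in basal than luminal cells (log2 fold change -1.20, SE 0.28, adjusted p = 0.00729). Nlrc5, the transactivator of class I genes, was low, at 2.33, 11.7 and 4.21 CPM in basal ducts, 0, 3.43 and 3.47 CPM in basal TEBs, 6.46 and 34.4 CPM in luminal ducts and 13.5, 11.8 and 14.5 CPM in luminal TEBs. Its groups overlapped within each cell type, and it passed none of the tests.

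Per length of transcript, B2m was the most abundant of the 34 genes in basal cells, at 325 ± 154 RPKM (CPM per kilobase of transcript, SD, n = 3) in ducts and 183 ± 33.2 RPKM in TEBs. In luminal cells H2-K1 led, at 422 ± 96.3 RPKM (SD, n = 2) in ducts and 495 ± 25.6 RPKM (SD, n = 3) in TEBs, and B2m followed at 407 ± 33.5 and 419 ± 17.9 RPKM. In luminal ducts these values differed by less than their SDs, and in luminal TEBs by more. In basal TEBs H2-K1, at 57.7 ± 8.12 RPKM, stood below B2m and near Irf1, at 67.6 ± 12.4 RPKM.

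**Figure D3:**
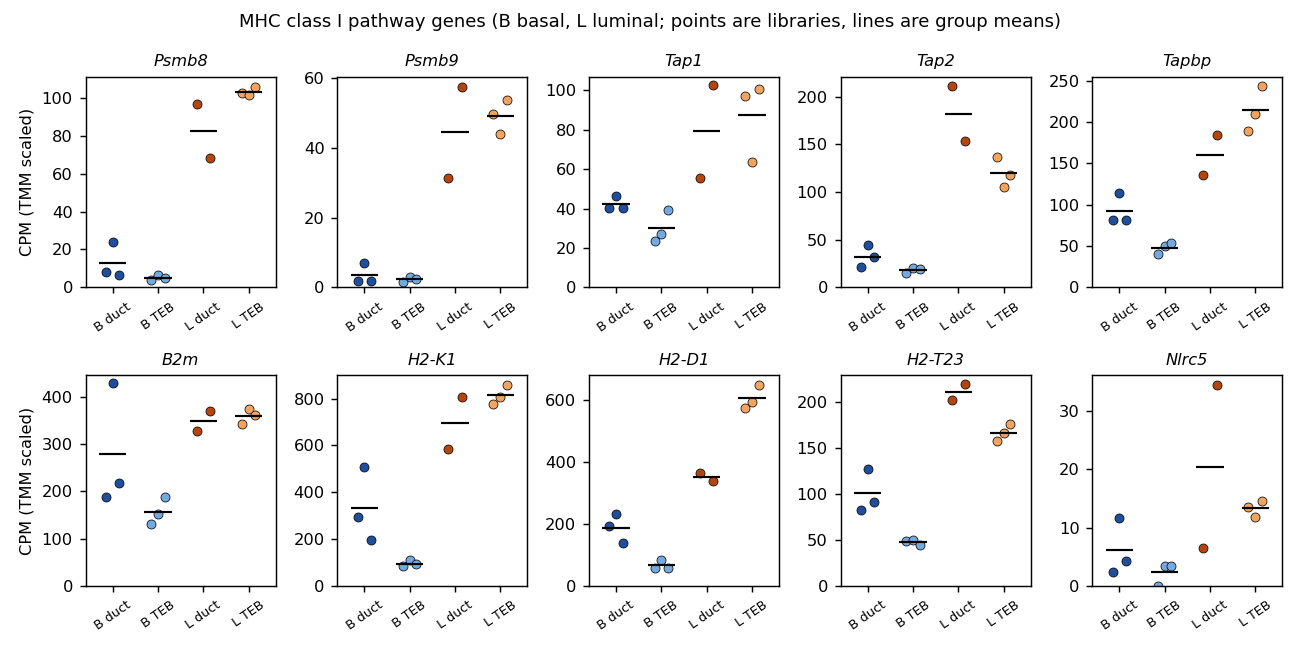
Level of the 5 processing genes and the 5 class I genes in each library in CPM (vertical axes, 1 panel a gene), with a point for each library and a line at each group's mean. In H2-K1, H2-D1, H2-T23 and Tapbp the basal TEB points lie below all basal duct points, and luminal points lie highest.

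The genes that cut and load peptides followed cell type more than structure. Tapbp, which encodes tapasin and bridges class I molecules to the transporter, was at 81.4, 114 and 81.1 CPM in basal ducts and at 40.6, 49.9 and 53.2 CPM in basal TEBs. In luminal cells it was at 135 and 184 CPM in ducts and at 189, 209 and 244 CPM in TEBs. Tapbp fell 1.92-fold in basal cells (log2 fold change -0.94, SE 0.20, adjusted p = 0.0472). This call was the least stable of the 4, passing in 8 of 20 alternatives and lost when any of 9 single libraries was left out (-1.05 to -0.76). In luminal cells the difference was 0.42 (SE 0.22, adjusted p = 0.367).

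Psmb8, a catalytic subunit of the immunoproteasome, was at 8.001, 23.8 and 6.72 CPM in basal ducts and at 3.75, 6.32 and 5.15 CPM in basal TEBs, against 96.6 and 68.2 CPM in luminal ducts and 102, 102 and 106 CPM in luminal TEBs. Psmb9, another catalytic subunit, was at 1.92, 7.08 and 1.95 CPM in basal ducts, 1.56, 3.12 and 2.27 CPM in basal TEBs, 31.4 and 57.5 CPM in luminal ducts and 49.7, 43.9 and 53.6 CPM in luminal TEBs. No basal library reached a luminal one in either gene. In ducts basal cells held 6.43-fold less Psmb8 (log2 fold change -2.68, SE 0.45, adjusted p = 0.00104) and 12.2-fold less Psmb9 (-3.61, SE 0.56, adjusted p = 0.000582). In TEBs Psmb8 was 20.2-fold lower (-4.33, SE 0.46, adjusted p = 2.75e-05) and Psmb9 was lower by a log2 difference of -4.39 (SE 0.56, adjusted p = 0.000103). Within basal cells, TEBs against ducts, Psmb8 differed by -1.33 (SE 0.42, adjusted p = 0.174).

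Tap2, which pairs with Tap1 to carry peptides into the endoplasmic reticulum, was at 21.5, 44.2 and 31.4 CPM in basal ducts, 15.4, 20.5 and 18.8 CPM in basal TEBs, 211 and 154 CPM in luminal ducts and 137, 106 and 118 CPM in luminal TEBs. It was 5.63-fold lower in basal than luminal cells of ducts (log2 fold change -2.49, SE 0.28, adjusted p = 5.70e-05) and 6.58-fold lower in TEBs (-2.72, SE 0.27, adjusted p = 1.45e-05). Tap1 was at 40.1, 46.3 and 40.2 CPM in basal ducts, 23.5, 26.9 and 39.5 CPM in basal TEBs, 55.7 and 103 CPM in luminal ducts and 97.2, 63.9 and 101 CPM in luminal TEBs. It was lower in basal cells of TEBs (-1.54, SE 0.28, adjusted p = 0.00154) but narrowly did not pass in ducts (-0.91, adjusted p = 0.0511). In 4 of the 5 processing genes, all but Psmb9, the basal TEB libraries lay below the basal duct libraries without overlap, as in 11.9% of all tested genes.

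Markers of other cells moved beside these basal differences, and their part in the result was not tested. The summed level of 5 luminal epithelial markers was between 707 and 806 CPM in basal ducts and between 529 and 538 CPM in basal TEBs, with no marker at 0, against 11042 to 16605 CPM in luminal libraries. Of these Krt18, a luminal keratin, fell in basal cells of TEBs (log2 fold change -1.98, SE 0.23, adjusted p = 0.00197), and the other 4 did not pass. Krt5, Krt14 and Krt17, 3 of 6 basal markers, also fell there. Fibroblast markers summed to between 430.2 and 840 CPM in basal ducts and between 226 and 406 CPM in basal TEBs. Endothelial markers summed to 12.0, 201 and 20.7 CPM in basal ducts and to 13.4, 38.7 and 4.90 CPM in basal TEBs, with 6 of 6 log2 fold changes below 0 at a median of -2.23 and 1 of 6 lower at an unadjusted p under 0.05. In luminal cells 5 of 6 basal markers were lower in TEBs than in ducts, at a median of -2.90, and their sum was 80.7 and 222 CPM in ducts and between 13.1 and 24.1 CPM in TEBs. None of the 20 immune markers tested passed between basal TEBs and ducts, with 0 at an unadjusted p under 0.05 and 0 by the likelihood ratio test, DESeq2 or voom, at a median log2 fold change of -1.64. Without basal duct replicate 2, which had the highest immune, fibroblast and endothelial sums of its group, H2-D1, H2-K1 and H2-T23 still passed.

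Of the 16 interferon-induced effectors, 8 passed between cell types in TEBs and none between TEBs and ducts by the quasi-likelihood test. In basal TEBs 7 were lower than in luminal TEBs (Oas1a, Usp18, Ifi35, Ifih1, Gbp2, Bst2 and Parp14; 11.8% of all tested genes) and Ifit2 was higher (13.2% of all), with a median log2 fold change of -2.15 against 0.04 over all. The Oas1a call was lost without luminal TEB replicate 3 (-3.04). In ducts 2 of the 16, Ifi35 and Bst2, were lower in basal cells, near the share of all tested genes that were lower (9.71%). Between TEBs and ducts the unadjusted test gave 3 lower genes in basal cells, and 2 higher and 1 lower in luminal cells, while the likelihood ratio test and DESeq2 each called 1 lower in basal cells and 1 each way in luminal cells. Over all 17370 tested genes these tools called 707 and 874 in basal cells and 1006 and 1277 in luminal cells, in either direction. The mean log2 CPM over the 16 genes was 2.20 ± 1.29 (SD, n = 3) in basal ducts, 1.57 ± 0.84 (SD, n = 3) in basal TEBs, 2.84 ± 0.88 (SD, n = 2) in luminal ducts and 3.995 ± 0.53 (SD, n = 3) in luminal TEBs, and only basal and luminal TEBs lay apart by more than 1 SD on either side.

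Ifih1, a cytosolic sensor of viral RNA, was at 4.67, 12.6 and 7.46 CPM in basal ducts, 0, 2.99 and 2.86 CPM in basal TEBs, 31.1 and 51.1 CPM in luminal ducts and 50.5, 58.4 and 68.9 CPM in luminal TEBs. All basal libraries lay below all luminal ones. In TEBs it was 29.2-fold lower in basal cells (log2 fold change -4.87, SE 0.87, adjusted p = 0.00134). Usp18, the protease that removes Isg15 from proteins and restrains the interferon receptor, was at 0.858, 7.42 and 3.10 CPM in basal ducts, 1.44, 1.35 and 2.74 CPM in basal TEBs, 4.53 and 16.6 CPM in luminal ducts and 27.4, 20.2 and 37.5 CPM in luminal TEBs, a 15.3-fold difference between the cell types in TEBs (-3.94, SE 0.80, adjusted p = 0.00315). Ifi35 was at 16.4, 20.9 and 12.2 CPM in basal ducts, 11.5, 10.97 and 9.30 CPM in basal TEBs, 66.4 and 44.8 CPM in luminal ducts and 55.9, 53.5 and 59.4 CPM in luminal TEBs. All basal libraries lay below all luminal ones, with differences of -1.75 in ducts (SE 0.27, adjusted p = 0.000611) and -2.41 in TEBs (SE 0.26, adjusted p = 3.06e-05).

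Ifit2, which binds viral RNA, went the other way. It was at 9.92, 16.8 and 8.31 CPM in basal ducts, 11.7, 11.2 and 9.58 CPM in basal TEBs, 7.28 and 7.40 CPM in luminal ducts and 0.874, 2.17 and 1.83 CPM in luminal TEBs. Basal TEB cells held 6.66-fold more than luminal TEB cells (log2 fold change 2.73, SE 0.55, adjusted p = 0.00281). The luminal TEB libraries lay below the luminal duct libraries, at a log2 difference of -2.17 (SE 0.57) with an adjusted p of 0.0850.

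Oas1a, an oligoadenylate synthetase that arms RNA decay, and Gbp2, a guanylate-binding GTPase, were among the genes with the lowest p between luminal TEBs and ducts. Oas1a was at 0.979 and 5.26 CPM in luminal ducts and at 20.3, 17.3 and 28.8 CPM in luminal TEBs, a log2 difference of 2.83 (SE 0.93, adjusted p = 0.154), and at 0.918, 3.74 and 4.85 CPM in basal ducts and 3.58, 2.06 and 1.34 CPM in basal TEBs. Of its 80-base stretches 46.1% also occur in Oas1g, so its counts are uncertain. Gbp2 was at 11.3 and 17.0 CPM in luminal ducts and at 30.9, 33.5 and 58.5 CPM in luminal TEBs, a log2 difference of 1.54 (SE 0.59, adjusted p = 0.217), and at 2.79, 8.87 and 13.9 CPM in basal ducts and 5.95, 3.98 and 4.96 CPM in basal TEBs. In both genes the luminal groups did not overlap, and neither passed. Parp14, a mono-ADP-ribosyltransferase, had the lowest p of the effectors in basal cells, at 9.38, 62.7 and 23.1 CPM in ducts and 4.04, 8.32 and 6.75 CPM in TEBs (log2 difference -2.31, SE 0.56, adjusted p = 0.0764), with 23.9 and 25.5 CPM in luminal ducts and 48.8, 49.5 and 72.5 CPM in luminal TEBs. It passed when basal duct replicate 1 was left out (-2.76).

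Isg15, the ubiquitin-like modifier, was at 3.03, 11.6 and 8.39 CPM in basal ducts, 1.15, 4.13 and 10.1 CPM in basal TEBs, 5.14 and 22.3 CPM in luminal ducts and 16.5, 13.3 and 29.9 CPM in luminal TEBs. Its groups overlapped within each cell type, with differences of -0.58 (SE 0.78, adjusted p = 0.796) in basal and 0.54 (SE 0.88, adjusted p = 0.805) in luminal cells, and -1.95 (SE 0.80, adjusted p = 0.1005) between the cell types in TEBs. The other effectors, Ifit1, Ifit3, Oasl2, Rsad2, Ifi44, Gbp3, Bst2 and Xaf1, ranged from 0 to 70.8 CPM, and of these Bst2, or tetherin, was the only one to pass any test. It was lower in basal cells of ducts (-1.52, SE 0.48, adjusted p = 0.0398) and of TEBs (-1.97, SE 0.45, adjusted p = 0.00642), and the duct call did not pass without basal duct replicate 1 or 3, or without any single luminal library (-1.66 to -1.14). Ifit3 shares 39.1% of its stretches with Ifit3b.

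**Figure D4:**
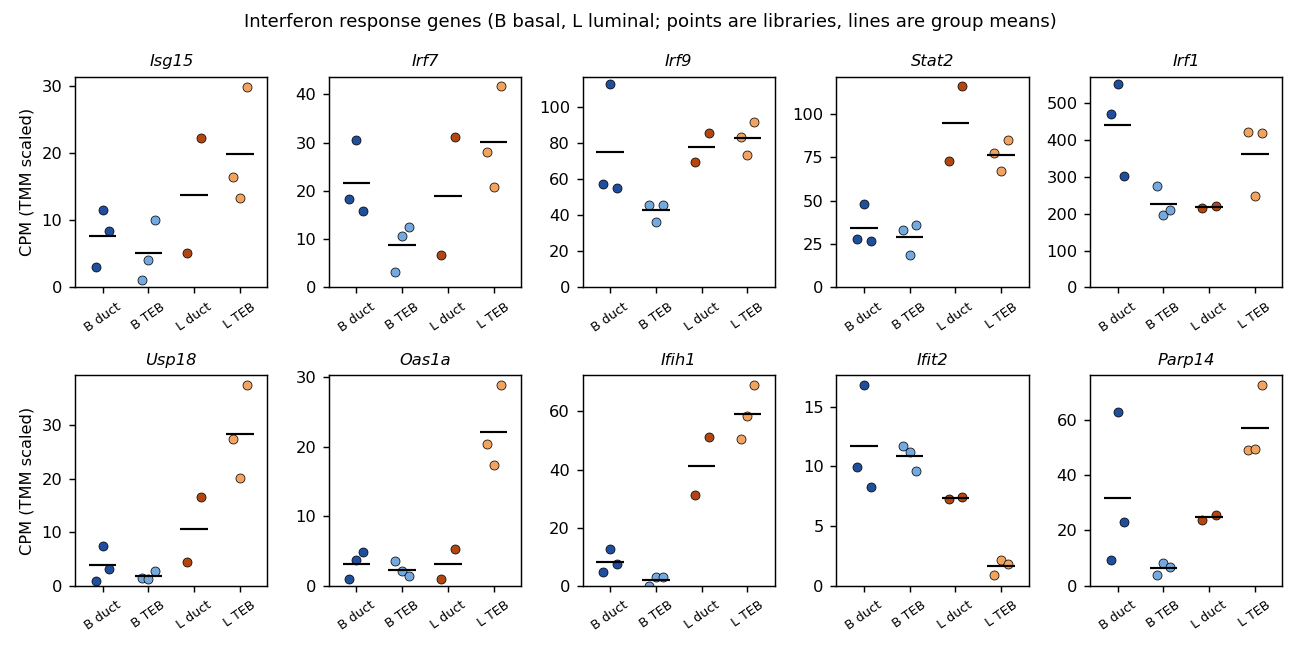
Level of 10 effectors and transcription factors in each library in CPM (vertical axes, 1 panel a gene), with a point for each library and a line at each group's mean. Ifih1, Usp18, Oas1a and Parp14 have their highest group mean in luminal TEBs, Ifit2 has its lowest there, and the Isg15 points of TEBs and ducts overlap within each cell type.

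The transcription factors of the interferon response were expressed in every library. Irf1, which is induced by interferon gamma, was at 470.5, 553 and 303 CPM in basal ducts, 275, 196 and 211 CPM in basal TEBs, 216 and 222 CPM in luminal ducts and 422, 249 and 419 CPM in luminal TEBs. Basal ducts lay above basal TEBs and luminal ducts below luminal TEBs, each without overlap. Irf1 was the only gene of the list higher in basal cells of ducts (log2 fold change 1.01, SE 0.30, adjusted p = 0.0299), a call that did not pass without basal duct replicate 1 or 2 or without either luminal duct library (0.82 to 1.03). Its differences between TEBs and ducts were -0.96 (SE 0.26, adjusted p = 0.116) in basal cells and 0.73 (SE 0.30, adjusted p = 0.245) in luminal cells, with an interaction of -1.69 (SE 0.40, adjusted p = 0.0972).

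Irf9 and Stat2, which act in one DNA-binding complex after type I interferon, were both lower in basal than luminal cells of TEBs. Irf9 was at 57.3, 113 and 54.9 CPM in basal ducts, 45.9, 36.2 and 45.9 CPM in basal TEBs, 69.7 and 85.8 CPM in luminal ducts and 83.4, 73.5 and 91.9 CPM in luminal TEBs. Its difference in TEBs was -0.96 (SE 0.27, adjusted p = 0.0193), not passing without basal TEB replicate 2, luminal TEB replicate 1 or luminal TEB replicate 3. Stat2 was at 27.6, 48.2 and 26.9 CPM in basal ducts, 33.1, 18.8 and 35.8 CPM in basal TEBs, 72.7 and 116 CPM in luminal ducts and 77.3, 67.3 and 85.0 CPM in luminal TEBs. It was lower in basal cells by -1.47 in ducts (SE 0.33, adjusted p = 0.00734), a call lost without luminal duct replicate 3 (-1.09), and by -1.39 in TEBs (SE 0.31, adjusted p = 0.00544). Irf7, the factor that amplifies type I interferon, was at 18.3, 30.6 and 15.8 CPM in basal ducts, 3.29, 10.6 and 12.5 CPM in basal TEBs, 6.71 and 31.2 CPM in luminal ducts and 28.0, 20.7 and 41.6 CPM in luminal TEBs. The basal groups did not overlap, but the difference of -1.29 (SE 0.59, adjusted p = 0.350) did not pass, and the difference between cell types in TEBs (-1.77, SE 0.60, adjusted p = 0.0502) narrowly missed.

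The class II genes other than Ciita peaked in luminal duct replicate 3 and basal duct replicate 2. Cd74, the invariant chain, was at 11.3, 52.0 and 7.93 CPM in basal ducts, 0.0577, 6.59 and 0.672 CPM in basal TEBs, 0.228 and 136 CPM in luminal ducts and 0.381, 4.76 and 1.21 CPM in luminal TEBs. H2-Aa, the alpha chain of I-A, was at 1.10, 13.2 and 3.85 CPM in basal ducts, 0.0577, 1.85 and 0 CPM in basal TEBs, 0.0910 and 59.8 CPM in luminal ducts and 0, 1.30 and 0.289 CPM in luminal TEBs. H2-Ab1, the beta chain, was at 0.0200, 5.81 and 3.85 CPM in basal ducts, 0, 1.64 and 0.980 CPM in basal TEBs, 0.797 and 49.3 CPM in luminal ducts and 0.112, 1.62 and 0.616 CPM in luminal TEBs. In all 3 genes luminal duct replicate 3 was the highest of the 11 libraries and basal duct replicate 2 the next. In Cd74, but not in H2-Aa or H2-Ab1, every basal TEB library also lay below every basal duct library, as in 11.9% of all tested genes.

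Those were also the libraries with the highest immune marker sums, as given above. Other markers were raised there too. Luminal duct replicate 3 had fibroblast, adipocyte and erythroid sums of 250, 78.5 and 31.3 CPM. Luminal duct replicate 1 had 6.03, 0 and 6.60 CPM. Basal duct replicate 2 had an adipocyte sum of 185 CPM, against 4.07 and 14.3 CPM in basal duct replicates 1 and 3. The part of any of these markers in the class II levels was not tested. In luminal duct replicate 3 the pan-leukocyte gene Ptprc was at 26.5 CPM, the B cell gene Cd79b at 19.4 CPM, and 8 of the 25 markers were at 0, while in luminal duct replicate 1 Ptprc was at 0.228 CPM, Cd79b was at 0, and 19 of 25 markers were at 0. In basal duct replicate 2 Ptprc was at 16.9 CPM and 7 markers were at 0. In basal duct replicates 1 and 3, with Cd74 at 11.3 and 7.93 CPM, Ptprc was at 0.0599 and 1.39 CPM. Cd74 differed between luminal TEBs and ducts by -5.00 (SE 1.90, adjusted p = 0.214), by 3.20 without luminal duct replicate 3 and by -6.00, past the threshold, without luminal duct replicate 1. H2-Aa and H2-Ab1 differed by -5.81 (SE 2.34) and -4.99 (SE 2.01), both at an adjusted p of 0.241. In basal cells the Cd74 difference was -3.23 (SE 1.70, adjusted p = 0.410) and -1.94 without basal duct replicate 2. Ciita, the class II transactivator, was at 4.11, 1.4998 and 1.72 CPM in basal ducts, 3.81, 2.15 and 1.06 CPM in basal TEBs, 0 and 1.44 CPM in luminal ducts and 0.202, 0.191 and 0.655 CPM in luminal TEBs, without the peaks of the other class II genes.

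**Figure D5:**
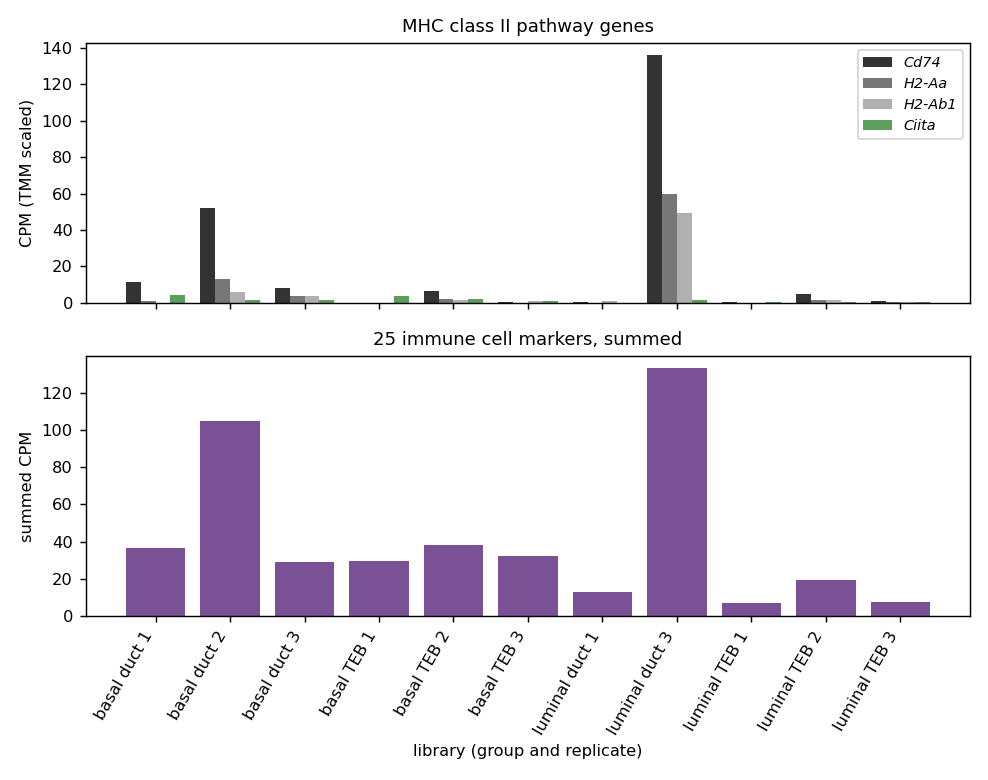
Level of Cd74, H2-Aa, H2-Ab1 and Ciita (upper panel, bars side by side) and the summed level of 25 immune markers (lower panel) in each library in CPM (vertical axes, bars from 0). Luminal duct replicate 3 and basal duct replicate 2 hold the tallest bars of Cd74, H2-Aa, H2-Ab1 and of the immune sum, at 133.2 and 104.9 CPM for the last.

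Beyond the list, 91 of 107 other genes of the pathway passed the filter, and they too differed mainly by cell type in TEBs. There 31 of 91 were lower in basal cells and 3 higher, beside 11.8% and 13.2% of all tested genes, and the median log2 difference was -1.31 against 0.04. In ducts 14 were lower and 4 higher, beside 9.71% and 12.6% of all, with a median of -0.66 against 0.08. Between TEBs and ducts none passed in basal cells, where 1.32% of all tested genes did, with 5 higher and 15 lower at an unadjusted p under 0.05. The likelihood ratio test called 6 lower, DESeq2 called 1 higher and 10 lower, and voom called none. Over all 17370 tested genes these tools called 707, 874 and 412 in either direction, in that order. In luminal cells 1 of 91 passed, where 1.41% of all tested genes did, namely the aminopeptidase Erap1, which trims peptides for class I (1.64 higher on the log2 scale in TEBs, SE 0.30, adjusted p = 0.0264).

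By role, of 12 interferon ligands only 1 passed the filter. Among the 10 receptors and kinases 4 were lower in basal cells of TEBs, as were 5 of 12 nucleic acid sensors and adaptors, 16 of 43 other interferon-induced genes, 5 of 14 other class I genes and 1 of 11 other class II genes, beside 11.8% of all tested genes. Psme1, a subunit of the proteasome activator, was lower in basal cells of TEBs by -2.79 (SE 0.31, adjusted p = 3.37e-05) and the class I gene H2-T22 by -2.14 (SE 0.22, adjusted p = 2.45e-05). The 3 higher in basal cells of TEBs, Calr, Pdia3 and Canx, encode general chaperones of the endoplasmic reticulum that also fold class I molecules. Calr was higher by 0.94 (SE 0.21, adjusted p = 0.00581) and also in ducts by 0.84 (SE 0.24, adjusted p = 0.0244).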

How the data were processed

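Libraries were made from about 10 ng of RNA with a poly(A) kit and sequenced as 80-base pairs on a NextSeq 500. The deposited values are raw counts of fragments per Entrez gene, which the authors made by aligning to mm10 with Rsubread and counting with featureCounts and its inbuilt RefSeq annotation; versions and the handling of reads with several matches are not given in the sources used here. Luminal duct replicate 2 had too few cells and was left out by the authors. Symbols were found for 25275 identifiers (93.0%).

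Genes had to pass filterByExpr at a minimum count of 10 and a minimum total of 15, and the counts were scaled by TMM and fitted in edgeR 4.0.16 (R 4.3.3) with 1 quasi-likelihood model over the 4 groups and 11 libraries. The 5 contrasts were Benjamini-Hochberg adjusted over all tested genes at 0.05, two-sided. The SE is the fold change divided by the root of F. Levels are CPM, RPKM from the deposited gene lengths, or log2 CPM (prior count 2). Alternatives used DESeq2 1.42.0 and limma 3.58.1. The fit was tested on simulated data.

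Values are printed per library for genes called between TEBs and ducts or in the interaction, the 5 lowest p in each TEB comparison, the 4 largest called changes each way between cell types in each structure, and Isg15, Irf7, Irf9, Stat2, B2m, H2-K1, Nlrc5, Psmb8, Tap1, Cd74, H2-Aa, H2-Ab1 and Ciita. The members and lists were chosen with earlier results of these data known. Krt18, Krt5, Krt14, Krt17, the immune genes, Erap1, Psme1, H2-T22, Calr and Ifit3 were named after their values were seen. Some items are not reported here.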

Additional observations from a re-analysis of the deposited data

Results flagged for a closer look

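H2-D1 changed differently from ducts to TEBs in the 2 cell types. The interaction term, basal change minus luminal change, was -2.28 on the log2 scale (SE 0.32, edgeR quasi-likelihood test, adjusted p = 0.0127), with basal TEBs below basal ducts in all libraries and luminal TEBs above luminal ducts in all libraries. It was the only gene of the 34 whose interaction passed. The call was lost with library totals alone. It was also lost without basal duct replicate 1, basal TEB replicate 3, luminal TEB replicate 1 or luminal TEB replicate 3. The luminal difference by itself did not pass and rested on 2 duct libraries.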

How the results depend on the processing

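All results were recomputed under 20 alternatives. Of 3400 alternative values for 170 gene comparisons, 162 changed sign, none of them while past the threshold by the alternative used. No called gene changed direction. With DESeq2 the calls over all tested genes also rose, from 230 to 874 in basal cells between TEBs and ducts. They rose from 245 to 1277 in luminal cells and from 77 to 712 in the interaction. For TEBs against ducts in basal cells 4 genes were called, against 0 with library totals alone and 9 with DESeq2, and 0 to 4 when single libraries were left out (0 without basal TEB replicate 3, 2 without basal TEB replicate 1). In luminal cells 0 were called, against 2 with the likelihood ratio test and 3 with DESeq2, and 0 to 1 when single libraries were left out (1 without luminal duct replicate 1). Between cell types in ducts 11 were called, against 7 with library totals alone and 7 to 13 when single libraries were left out (7 without basal duct replicate 1). Without both libraries of highest mitochondrial share 11 were called in ducts too, but 4 higher and 7 lower in place of 1 and 10, with 6 genes shared and a median of -0.25. In TEBs 19 were called, and no alternative moved this beyond 17 to 23. For the interaction 1 was called, against 0 with library totals alone, 3 without the filter, 5 with the likelihood ratio test and 5 with DESeq2, and 0 to 2 when single libraries were left out. Over all genes, library totals alone shifted the median (log2) from -0.03 to -0.16 for basal TEBs against ducts, 0.04 to 0.42 for luminal, 0.08 to 0.19 for cell types in ducts, 0.04 to -0.35 for cell types in TEBs and -0.13 to -0.63 for the interaction.

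Signs that changed were of genes that did not pass. In basal cells, TEBs against ducts, leaving out single libraries gave -0.40 to 0.10 for Stat2 and -0.60 to 0.50 for Ciita. In luminal cells it gave -0.16 to 1.95 for Isg15, -0.049 to 2.16 for Irf7, -0.047 to 0.25 for Irf9, -0.60 to 0.072 for Stat2, -0.23 to 0.65 for Tap1, -0.038 to 0.13 for B2m, -1.37 to 1.04 for Nlrc5, -6.41 to 3.20 for Cd74, -7.65 to 2.50 for H2-Aa and -2.03 to 6.89 for Ciita. Without both libraries of highest mitochondrial share the luminal differences were 0.089 for Stat2, 1.05 for Nlrc5, 3.22 for Cd74, 2.52 for H2-Aa and 6.99 for Ciita. The luminal difference was 0.12 for Stat2 with library totals alone, -0.026 for B2m both with median-of-ratios scaling and with DESeq2, and, with voom, 0.42 for Nlrc5 and 2.24 for Ciita. The cause of these changes was not tested.

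With the replicate number as a block, 4 genes were called in basal cells between TEBs and ducts, 0 in luminal cells, 12 between cell types in ducts, 22 in TEBs and 1 in the interaction, and signs changed for B2m (-0.081, luminal) and Ciita (0.037, basal). Deviations of samples with the same number correlated between -0.07 and 0.16 over 15 pairs (median 0.07), above 0.1 in 4. Samples with different numbers gave -0.16 to 0.14 over 30 pairs (median -0.03), above 0.1 in 2. Correlations were small but tended to be higher for equal numbers. The deviations were from group means, so higher values for equal numbers bring lower ones for different numbers. With 2 luminal duct libraries, their values are mirror images. The pairs are thus not independent, and the contrast between the sets cannot decide on pairing. Whether equal numbers mark a shared pool was not settled, and the main fit used no block. Depth limits levels near 0, since 3 counts stood at 0.0572 to 0.173 CPM depending on the library. The 2 luminal duct libraries limit every comparison that uses them. Zeros also stood beside higher levels, as in Oasl2 at 0, 267 and 482 counts in basal TEBs and Xaf1 at 0, 391 and 75 in basal ducts. The limit of 3 counts does not cover such a spread between libraries. Basal TEB replicate 1 had 6 of the 34 genes at 0, Ifih1 and Nlrc5 among them. It had counts for 13302 genes, against 18269 in basal TEB replicate 2.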
